A study of Bos taurus with 2 samples.

Results

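Genes of the Wnt pathway were examined in muzzle tissue from 1 light-muzzle and 1 dark-muzzle HanWoo cow. They were chosen by gene symbol, as Wnt ligands (WNT), frizzled receptors (FZD), secreted antagonists (SFRP, DKK, FRZB, WIF1), R-spondins and their receptors, and the proteins that carry the signal to the nucleus. The rule names 71 genes, and 28 of them had at least 1 probe whose accession matched a RefSeq gene, out of 28099 genes or accessions on the array. These 28 genes were represented by 60 probes, each spotted once. The other 43, among them the dishevelled genes, AXIN1, AXIN2, LRP5, LRP6 and LEF1, were not analysed here.

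HanWoo are native Korean cattle. Both animals were females of 30 months and gave nose tissue, which the labels call yellow in one cow and black in the other. For the arrays, RNA came from the front part of the muzzle of 1 cow chosen as representative of each colour. No genotype or treatment is given for either. By real-time PCR the paper also measured selected genes, FZD1, FZD8 and FZD9 among them, in more cows of each colour. Those values are not part of the data used here. The samples are called the light muzzle and the dark muzzle here. With 1 cow per colour there was no replicate, so that muzzle colour cannot be told apart from any other difference between the 2 animals or their pieces of tissue, and no test was made. In bulk tissue, fewer cells of a type and less RNA per cell cannot be told apart.

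Wnt proteins are secreted lipid-bearing signals that bind frizzled receptors together with a co-receptor. In the canonical branch, a destruction complex of APC, axin, GSK3 and casein kinase 1 marks β-catenin for breakdown until a Wnt signal stops it, and β-catenin then acts with LEF/TCF factors on target genes. In skin the pathway is known for its part in hair follicle and appendage formation, in the upkeep of the epidermis and in melanocyte development, and fibroblasts of the dermis are a known source of its secreted antagonists.

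Each RNA was read alone on an Agilent 1-colour bovine array, on which a probe is a short DNA spot and its brightness is given as a processed signal, an intensity with the background already removed. Between 78.8% and 81.9% of noncontrol spots were well above background per array, and no spot was saturated. Levels were divided by the 75th percentile of their array, and a log2 ratio is the dark muzzle over the light muzzle. These percentiles were intensities of 1144 (light) and 1137 (dark). Of the 60 probes, 52 were well above background on both arrays and gave a measured ratio, 5 were so on only 1 array and gave a lower bound of the difference, and 3 were dim on both and gave none. All 28 genes had a ratio, 26 of them measured and 2 as a bound only (WNT1 and WNT16), which could take no other direction than the one given. The scanner software estimates an error for each spot, and the resulting standard error of a measured ratio was 0.20 to 0.35 on the log2 scale over these probes. This error (SE) covers the spot and not the animal. For the 5 probes with a bound it was 0.43 to 0.56, so that a bound is itself uncertain and the difference may be smaller. A gene's ratio is the mean over its measured probes, given with the SD between probes.

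Most Wnt pathway genes differed by less than 1.5-fold between the cows, and those that differed more went both ways. In the dark muzzle FRZB was 2-fold or more higher, and SFRP2 and FZD1 were at least 2-fold lower. WNT16, with a lower bound of 1.95-fold, was not counted as higher but may be past 2-fold or, given the error of its dim spots, smaller. The counts were 1 of 28 (3.57%) and 2 of 28 genes (7.14%), whereas 9.34% of all 23161 genes or accessions with a ratio were at least 2-fold higher and 7.64% at least 2-fold lower. At 1.5-fold, 4 of the 28 were higher, among them WNT1 and WNT16 by a bound only, against 18.8% of all genes. Lower were 5 of the 28 (17.9%), against 15.8%. These shares over the 28 genes lay below the background or close to it. The median log2 ratio of the 28 genes was -0.23, with 17 below 0 (60.7%), and the median over all genes was 0.017, with 48.8% below 0. Over probes, 37 of the 52 measured had a ratio below 0 (71.2%), against 49.7% of all 33451 measured probes. Of these 52, 20 were lower by more than 2 SE and 6 were higher by more than 2 SE, whereas 20.6% and 22.5% of all measured probes were. Several of the 52 probes read the same gene, FZD1, FZD7 and CTNNB1 among them, so that they are not separate observations.

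**Figure D1:**
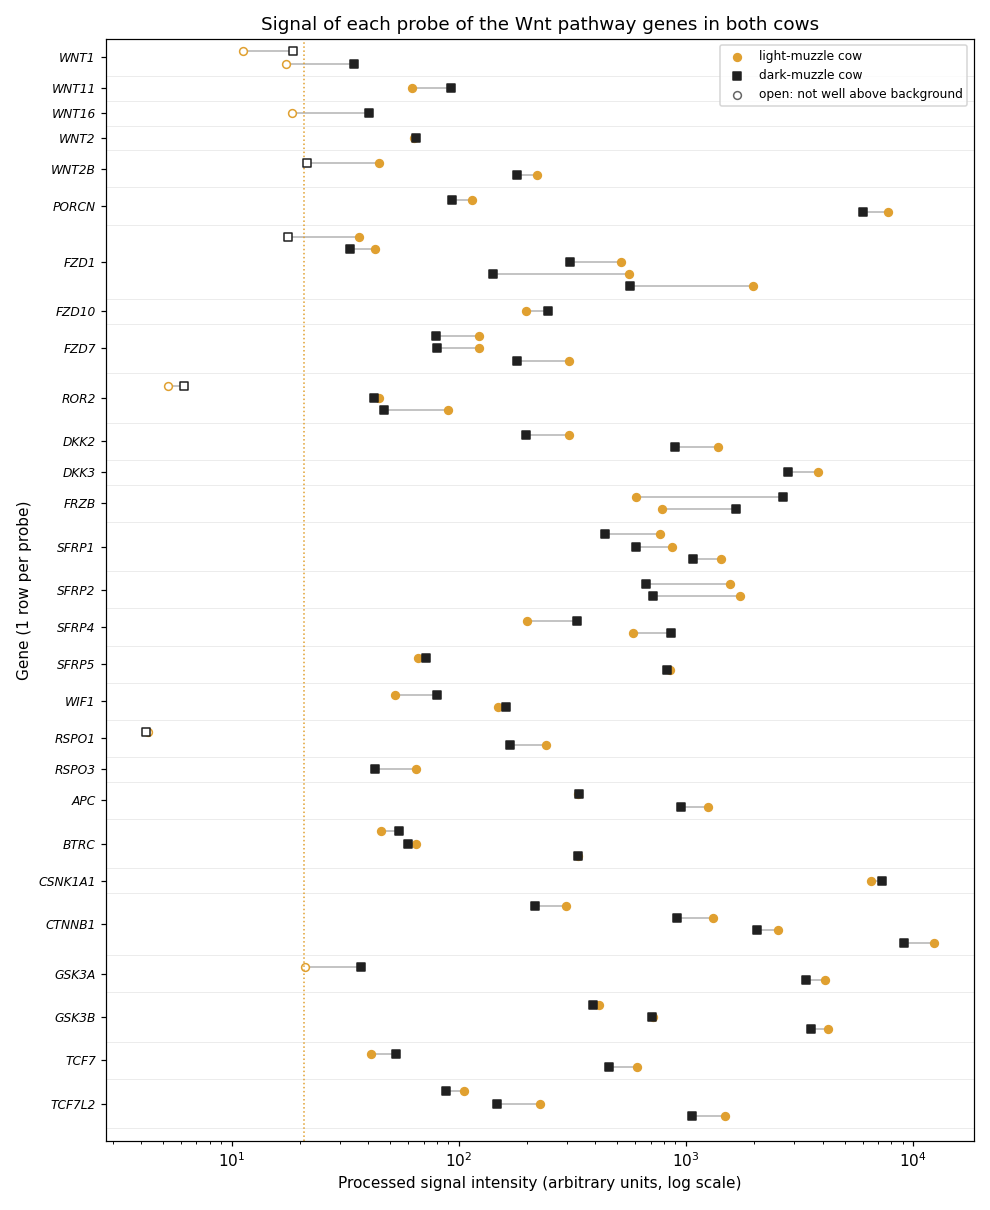
Processed signal (intensity, log scale) of each probe of the 28 genes, 1 row per probe, in the light muzzle (circle) and the dark muzzle (square). Open symbols are not well above background, and the dotted line is the detection limit of the light-muzzle array, the lowest intensity counted as well above background, 20.8. The widest gaps between circle and square are at FZD1, FRZB and SFRP2, and levels of different probes are not comparable.

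Of the 5 ligands with a matched probe, 4 had a ratio above 0 and 1 below. For WNT1 and WNT16 this was a bound only, whose direction was fixed by the array that detected them. The median log2 ratio was 0.58 with these bounds and 0.043 over the ligands measured on both arrays. WNT16, a ligand of the non-canonical as well as the canonical branch, had an intensity of 18.4 in the light muzzle, which is not well above background, and 40.5 in the dark muzzle. Its lower bound was 1.95-fold higher in the dark muzzle. WNT1, a classical canonical ligand that in development is made by the dorsal neural tube, was read by a probe at 17.3 in the light muzzle, not well above background, and 34.5 in the dark muzzle, at least 1.67-fold higher. Its other probe was dim in both cows, at 11.3 and 18.6. Both ligands were thus detected in the dark muzzle only, close to the lowest intensity that counted as well above background there, 20.3. The SE was 0.45 for WNT16 and 0.56 for WNT1 on the log2 scale, so that these bounds are not firm minimums.

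WNT11, a ligand known for planar polarity signaling, had intensities of 62.2 and 92.7 in the light and dark muzzle and a log2 ratio of 0.58 ± 0.26 (SE). WNT2 did not differ by more than its error, with intensities of 63.4 and 64.9 and a ratio of 0.043 ± 0.25 that turned negative under quantile and loess normalization. WNT2B, a canonical ligand, was read by 2 probes that both went down. The brighter went from 221 to 180, a log2 ratio of -0.29 ± 0.21, and the other had 44.5 in the light muzzle and 21.6, not well above background, in the dark muzzle, at least 2.05-fold lower. Dim probes of the whole array leaned to the dark muzzle, since 2260 were well above background only there and 922 only in the light muzzle. The 8363 dimmest of all measured probes had a median log2 ratio of 0.069, with 55.6% above 0. Its part in the ratios of WNT1, WNT11 and WNT16 was not tested, and under normexp background correction WNT11 had a ratio of 0.18 and the bounds of WNT1 and WNT16 were 0.31 and 0.51, from 0.74 and 0.97. PORCN, the enzyme that attaches the lipid to Wnt proteins, was at 7731 and 6013 for its brighter probe, and its 2 probes gave a mean log2 ratio of -0.32 ± 0.047 (SD, n = 2 probes).

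Of the frizzled receptors, FZD1 and FZD7 were lower in the dark muzzle and FZD10 was not. FZD1 was read by 5 probes, and all of them were lower in the dark muzzle. The brightest went from 1982 in the light muzzle to 565 in the dark muzzle, and the others from 561 to 141, from 516 to 308 and, near background, from 42.8 to 33.1. Their log2 ratios were -1.80, -1.98, -0.74 and -0.36, with a mean of -1.22 ± 0.79 (SD, n = 4 probes). The remaining probe was at 36.2 in the light muzzle and, not well above background, at 17.7 in the dark muzzle, at least 1.77-fold lower. The 4 measured values thus covered a difference of 1.29-fold to 3.96-fold, so that the size depends on the probe while the direction did not. The brightest probe alone gave -1.80, and normexp background correction -0.98.

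FZD7, a receptor known from stem and progenitor cells of epithelia, was lower on each of 3 probes, with intensities of 306, 123 and 123 in the light muzzle and 181, 79.9 and 79.7 in the dark muzzle. Its mean log2 ratio was -0.66 ± 0.079 (SD, n = 3 probes), a 1.58-fold difference, and it was -0.39 under normexp background correction. FZD10 had intensities of 197 and 248, a log2 ratio of 0.34 ± 0.21 (SE) from 1 probe. ROR2, a receptor tyrosine kinase for WNT5A, had 1 probe at 89.8 and 46.9 with a ratio of -0.93 and another at 44.5 and 42.5 with a ratio of -0.056, so that its probes did not agree on a difference, and a further probe was dim in both cows. FZD8 and FZD9 were matched only through accessions in the paper's list of genes lower in the dark muzzle, and are not counted among the 28 genes. That list was drawn from these same 2 arrays, so that their low ratios were given by the choice. The intensity of FZD9 was 1221 in the light muzzle and 262 in the dark muzzle, a log2 ratio of -2.21. The 2 probes of FZD8 went from 1546 to 404 and from 310 to 68.5, with a mean log2 ratio of -2.05. Both ratios were lower than that of any of the 28 genes. With these receptors added, 4 of 30 genes were at least 2-fold lower and the median log2 ratio was -0.28. This count cannot be set against the 7.64% of all genes, since the 2 receptors came from a list of lower genes.

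**Figure D2:**
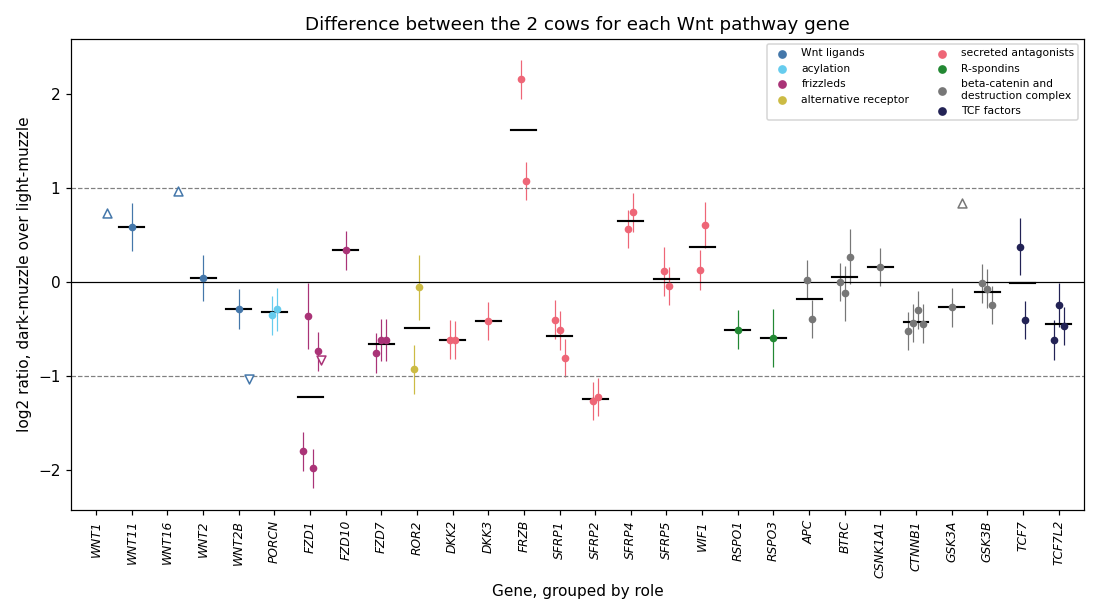
The log2 ratio (dark-muzzle over light-muzzle) of each measured probe, with the scanner software's standard error as bars, for the 28 genes in groups by role. Black lines are means over measured probes, open triangles are lower bounds and dashed lines mark 2-fold. FRZB (1.62) lies above the upper line, SFRP2 (-1.24) and FZD1 (-1.22) lie below the lower line. The means of the other measured genes are between the lines, and bounds, drawn without their error, stand for differences of at least that size.

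The secreted antagonists differed in both directions. FRZB, also called sFRP3, binds Wnt proteins outside the cell through a frizzled-like domain. Its 2 probes had intensities of 601 and 789 in the light muzzle and 2669 and 1657 in the dark muzzle. The log2 ratios were 2.16 ± 0.20 and 1.08 ± 0.20 (SE), with a mean of 1.62 ± 0.76 (SD, n = 2 probes), a 3.07-fold difference. FRZB was higher than 96.0% of all genes in the order of ratios. SFRP4, the secreted frizzled-related protein closest to FRZB in sequence, was higher as well. Its probes were at 586 and 199 in the light muzzle and at 860 and 331 in the dark muzzle, and the mean log2 ratio was 0.65 ± 0.13 (SD, n = 2 probes), or 1.57-fold.

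The other branch of that family, SFRP1, SFRP2 and SFRP5, did not follow. The probes of SFRP2, a product of dermal fibroblasts, were at 1740 and 1567 in the light muzzle and at 720 and 666 in the dark muzzle. Its log2 ratios of -1.26 and -1.23 were nearly the same, and the mean was -1.24 ± 0.027 (SD, n = 2 probes), a 2.37-fold difference. SFRP1 was lower on each of its 3 probes. They were at 1425, 867 and 772 in the light muzzle and at 1074, 604 and 439 in the dark muzzle, with a mean log2 ratio of -0.57 ± 0.21 (SD, n = 3 probes). SFRP5 lay near 0, at 0.036 ± 0.11 (SD, n = 2 probes), and its sign changed under quantile normalization and with the brightest probe alone. The 5 genes of this family thus ranged from -1.24 to 1.62.

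The Dickkopf proteins DKK2 and DKK3 were lower in the dark muzzle. DKK2, which binds the LRP co-receptors, had intensities of 1385 and 305 in the light muzzle and 899 and 198 in the dark muzzle. Both probes gave a log2 ratio of -0.61, a 1.53-fold difference. DKK3, a divergent member of the family, was at 3803 and 2830, a log2 ratio of -0.42 ± 0.20 (SE) from 1 probe. WIF1, an antagonist that binds the ligands directly, had probes at 149 and 52.6 in the light muzzle and at 162 and 79.9 in the dark muzzle. Their log2 ratios were 0.13 ± 0.21 and 0.61 ± 0.25 (SE), and the second, dimmer probe set the mean of 0.37. Over the 8 antagonists with a matched probe, 4 were below 0 and 4 above, and the median log2 ratio was -0.19.

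Most markers of fibroblasts were lower in the dark muzzle, where SFRP1, SFRP2, DKK2 and DKK3 were lower and FRZB and SFRP4 higher. Of 8 fibroblast markers with a matched probe, all were well above background in both cows, 7 had a log2 ratio below 0 and 0 were at least 2-fold lower. Their median was -0.39, and their summed level, in units of the 75th percentile of each array, was 95.8 in the light muzzle and 65.4 in the dark muzzle. The lowest of these markers was COL1A1, a type I collagen chain, at -0.69 ± 0.80 (SD, n = 5 probes). Medians below 0 were also found for the serous gland (-2.65), Schwann cell (-0.22), keratinocyte (-0.18) and leukocyte (-0.12) markers. A lower median was thus not particular to fibroblasts. The part of any of these markers in the ratios of the antagonists was not tested.

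The R-spondins, secreted proteins that strengthen Wnt signaling by removing the ubiquitin ligases RNF43 and ZNRF3 from the cell surface, were both lower in the dark muzzle by amounts of about 2 SE. RSPO1 had intensities of 241 and 169, a log2 ratio of -0.51 ± 0.21 (SE), from 1 probe, while its other probe was dim in both cows. RSPO3 was at 64.8 and 42.7, a ratio of -0.59 ± 0.31 (SE), and at -0.33 under normexp background correction.

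β-catenin and the genes of its destruction complex differed by less than 1.5-fold. CTNNB1, which encodes β-catenin, was lower on each of 4 probes. They were at 12384, 2549, 1317 and 296 in the light muzzle and at 9098, 2067, 912 and 216 in the dark muzzle. The mean log2 ratio was -0.42 ± 0.095 (SD, n = 4 probes), a 1.34-fold difference. All 4 were well above background in both muzzles, and their ratios lay between -0.52 and -0.29. APC, the scaffold of the complex, had log2 ratios of 0.027 and -0.40 on its 2 probes. GSK3B, the kinase that marks β-catenin, had 3 probes between -0.24 and -0.014. GSK3A was at 4080 and 3365 on its bright probe, a ratio of -0.27 ± 0.20 (SE), whereas its dim probe was detected in the dark muzzle alone, at least 1.79-fold higher, so that its mean turned positive when that probe was averaged in. BTRC, the ubiquitin ligase subunit that recognises marked β-catenin, had a mean of 0.051 ± 0.20 (SD, n = 3 probes). CSNK1A1, a casein kinase 1, was at 6552 and 7280, a ratio of 0.16 ± 0.20 (SE). The means of the destruction complex genes lay between -0.27 and 0.16, within or little beyond the SE of a single probe, and the sign of BTRC changed under quantile and loess normalization.

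Of the transcription factors that β-catenin binds, TCF7L2 was lower on each of 3 probes. They were at 1487, 227 and 105 in the light muzzle and at 1068, 147 and 88.3 in the dark muzzle, and the mean log2 ratio was -0.44 ± 0.19 (SD, n = 3 probes). TCF7 had a probe at 609 and 458 with a ratio of -0.40 and a dim probe at 41.0 and 52.9 with a ratio of 0.38, so that its mean of -0.013 stands for 2 values on opposite sides of 0. Over all members, 17 genes had at least 2 measured probes. In 10 of these every measured probe was below 0, in 3 (FRZB, SFRP4 and WIF1) every measured probe was above 0, and in 4 the probes lay on both sides. The same count was not made over the 7661 genes of the array with 2 or more measured probes. This split therefore describes agreement between probes and is not a result about the pathway.

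Other genes of the pathway, from lists written down with earlier results of these data known, did not move one way. Of the 18 Wnt target genes reported here, 0 were at least 2-fold higher and 3 (16.7%) at least 2-fold lower. The shares of all genes were 9.34% and 7.64%. The median log2 ratio of these targets was 0.20. The lowest were ID2 (-2.04 ± 0.40, SD, n = 2 probes), which encodes an inhibitor of helix-loop-helix factors, ASCL2 (-1.39, 1 probe) and CCND1 (-1.05, 1 probe), which encodes cyclin D1. The highest of these 18 were MITF (0.86), the melanocyte transcription factor, which is also on the melanocyte list, VEGFA (0.70 ± 0.073, SD, n = 3 probes), an angiogenic growth factor, and MYC (0.61 ± 0.059, SD, n = 2 probes), a much used target of β-catenin that was opposite in direction to CCND1. These targets answer to other pathways too.

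Of 13 other extracellular and membrane regulators, 1 was at least 2-fold lower (7.69%) and 0 were 2-fold higher, against 7.64% and 9.34% of all genes, and the median log2 ratio was -0.37. The lowest was CTHRC1, a secreted protein of matrix-forming cells that favours planar polarity signaling, at -1.06 ± 0.19 (SD, n = 2 probes). It was followed by DKKL1 and TMEM132A, each at -0.99 with probes far apart, from -1.77 to -0.22 and from -2.11 to -0.20. The highest were CPZ (0.79) and GPC6 (0.42), each from 1 measured probe, and MCC (0.38 ± 0.067, SD, n = 2 probes). In the light and dark muzzle, no probe was brighter than 53.0 and 90.8 for CPZ or than 26.2 and 34.9 for GPC6. The 27 other intracellular regulators had a median log2 ratio of 0.16 and 0 past 2-fold in either direction. CTNNBIP1, an inhibitor of the binding of β-catenin to TCF factors, was the highest of them, at 0.89 ± 0.14 (SD, n = 2 probes), ahead of CSNK2A1 (0.54) and PPP2R1A (0.42). CBY1, a further inhibitor of β-catenin, was the lowest, at -0.74 ± 0.13 (SD, n = 3 probes), followed by PYGO2 (-0.59) and CSNK1G3 (-0.57). Of 16 planar polarity and Wnt calcium genes, 13 had a ratio, with a median of 0.19. PRICKLE1, a planar polarity gene, was the only one past 2-fold (-1.22, 1 probe), followed by PRICKLE3 (-0.60) and PRKCB (-0.47). PPP3CB (0.91 ± 0.53, SD, n = 3 probes), NFATC1 (0.48) and PPP3CA (0.45 ± 0.27, SD, n = 3 probes), of the calcineurin branch, were the highest. The 2 measured probes of NFATC1 did not agree, at -0.026 and 0.98. PPP3R1, of the same branch, was near 0 (0.086, 1 probe).

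**Figure D3:**
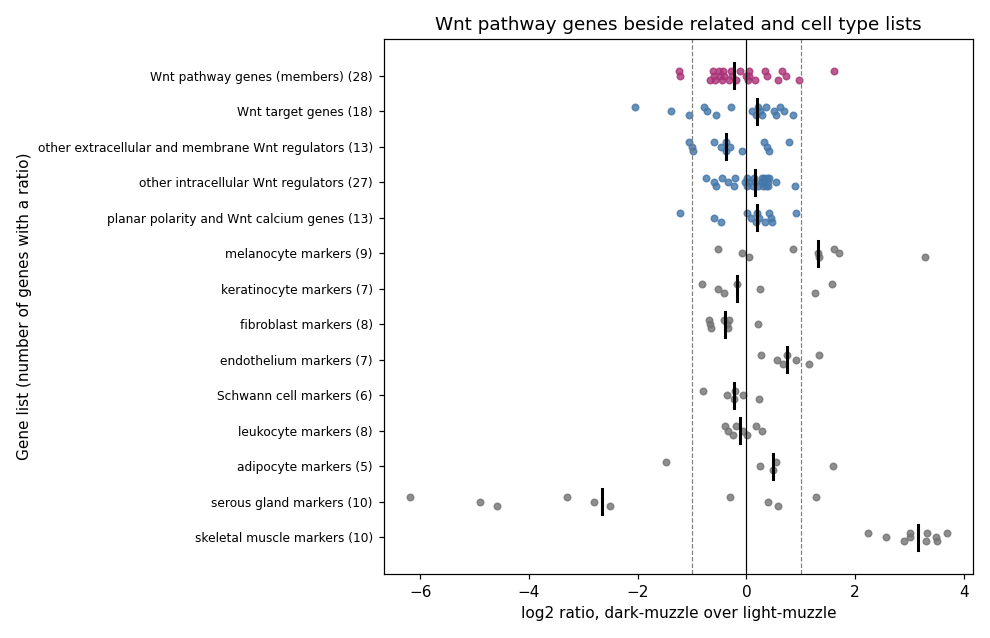
The log2 ratio (dark-muzzle over light-muzzle) of each gene in the Wnt pathway (28 genes), in the 4 lists of other pathway genes and in the cell type marker lists. Points are genes, vertical bars are medians and dashed lines mark 2-fold. The Wnt pathway genes lie around a median of -0.23, between the skeletal muscle markers (median 3.16) and the serous gland markers (median -2.65).

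The 2 pieces of tissue differed in skeletal muscle, serous gland, melanocyte and endothelial markers, whose median log2 ratios lay farther from 0 than that of the Wnt pathway genes. In the dark muzzle all 10 skeletal muscle markers were 2-fold or more higher, with a summed level of 218 in the light muzzle and 1309 in the dark muzzle. Of 10 serous gland markers 6 were at least 2-fold lower, and their summed level went from 315 to 22.4, with STATH not well above background in the dark muzzle. The other direction was seen for BPIFA1 (1.29), LPO (0.57) and LYZ (0.40). The 7 keratinocyte markers were well above background in both cows, with a median of -0.18. Their summed level was 514 in the light muzzle and 740 in the dark muzzle, of which the 1 probe of KRT10 gave 121 and 360. Among the 7 markers, KRT10 (1.57) and IVL (1.26), of differentiating keratinocytes, were past 2-fold, and COL17A1 (-0.81), of the basal layer, was the lowest. Of 9 melanocyte markers 5 were at least 2-fold higher, 2 of these by a bound. For these 2, TYRP1 and EDNRB, the light muzzle had no signal well above background. MITF was at 0.86 and MC1R (0.052) near 0, while KIT (-0.072) and DCT (-0.52) lay below 0. The summed level was 2.61 in the light muzzle and 5.42 in the dark muzzle, of which PMEL alone gave 0.93 and 3.02. The 7 endothelial markers all had ratios above 0, with a median of 0.75 and a summed level of 7.49 and 16.3. The Schwann cell, leukocyte and adipocyte markers had medians of -0.22, -0.12 and 0.48. Their part in the Wnt pathway ratios was not tested.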

How the data were processed

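Muzzle RNA of 1 light-muzzle and 1 dark-muzzle cow was hybridised to 1 Agilent 1-colour array each. The authors deposited Feature Extraction 10.7.3.1 output, whose processed signal is a background-subtracted, detrended intensity, and a log2 table per probe, made in GeneSpring. That deposited log2 table, used only as an alternative, matched the levels computed here to within 0.000213 for probes spotted once.

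Processed signals were divided by the 75th percentile over noncontrol spots, put on the log2 scale and averaged per probe, without control and outlier spots. A probe well above background on 1 array had a lower bound, its level there minus the other array's dim level or, if higher, its detection limit (the lowest level well above background). Gene ratios were means over measured probes or, with none, the largest bound. Of 43639 probes, 20587 matched a RefSeq symbol of ARS-UCD2.0, whose coordinates were not used. No column of gene names was used. The SE of a ratio combined the software's error of both spots.

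Members and lists were chosen with earlier results of these data known. Named genes were all members and the 3 highest and 3 lowest of each other pathway list. One gene of the Wnt target list is not reported here and was left out of its counts and median. COL1A1 and the keratinocyte, serous gland and melanocyte markers were named after their values were seen. With 1 array per group no test was made and precision is limited by that number. Counting was tested on simulated data. The alternatives were quantile and loess (span 0.3) normalization, a 50th percentile shift or none, normexp (offset 50, on median pixel signals), filters on dim probes, outlier spots kept, the deposited table, other rules for probes of a gene, other thresholds, and FZD8 and FZD9 added, which was chosen after seeing the data. Python 3.11.15, numpy 2.4.6, pandas 2.3.3, R 4.3.3 and limma 3.58.1 were used.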

Additional observations from a re-analysis of the deposited data

How the results depend on the processing

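Of the 28 genes, 1 stayed at least 2-fold higher and 2 at least 2-fold lower under the other normalizations and with outlier spots kept. The same held with the deposited table and with the other rules for the probes of a gene. Under these settings 8.1% to 9.37% of all genes were higher and 7.57% to 9.2% lower. Normexp background correction left 1 gene lower, against 4.4% of all genes. Without a filter on dim probes 2 genes were higher, against 13.9%. A threshold of 1.5-fold gave 4 higher and 5 lower, against 18.8% and 15.8% of all genes. At 3-fold 1 was higher and 0 were lower, against 4.23% and 3.4%. Counting probes gave 2 higher and 5 lower of 57, against 9.76% and 7.17% of all probes with a ratio. The higher ones read FRZB, and the lower ones FZD1, SFRP2 and, by a bound, WNT2B, so that several read the same gene. Adding FZD8 and FZD9, taken from the paper's list of lower genes, gave 4 lower. The median log2 ratio lay between -0.32 and -0.15. Of the 28 genes, 24 kept their sign under each of 13 alternatives that gave them a value (WNT1 and WNT16 have none from probes measured on both arrays), the exceptions being BTRC, GSK3A, SFRP5 and WNT2, and no gene past 2-fold reversed. Of 362 gene values under these alternatives, 26 moved by more than the median SD between probes of a gene, 0.18. The GeneName alternative was not run, since no such column was used here. No paired analysis was possible because each group held 1 array. Signal over background left WNT1 and WNT16 with bounds only.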
